A study of Mus musculus with 12 samples.

Results

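The genes described here are 31 mouse genes of cholesterol synthesis and of the control and movement of sterols that were listed by name. All 31 had at least 1 probe on the array that could be assigned through its RefSeq accession, and all 31 were among the 15445 genes tested. By role they are 7 enzymes of the mevalonate and isoprenoid steps, 11 enzymes from squalene to the sterols, 5 genes of SREBP regulation, 5 LXR receptors and targets, and 3 sterol transport proteins. RNA of mouse embryonic fibroblasts (MEFs) was measured on 12 single-colour Agilent arrays, 3 in each of 4 groups. Wild-type cells and cells of the genotype GADD34ΔC/ΔC (called ΔC below) were either left untreated or lipofected for 6 h with 2.5 µg/ml of high molecular weight poly(I:C), an RNA duplex made in the laboratory that cells read as viral. GADD34, the product of Ppp1r15a, is a regulatory subunit through which protein phosphatase 1 acts on eIF2α, a factor of translation initiation. The labels do not say which sequence the ΔC allele lacks, nor from how many embryos or lines the cells of each genotype came, so genotype and cell line cannot be told apart. No group received the lipid reagent alone, so the lipid and the RNA it carried cannot be told apart either. The design text names 3 independent experiments.

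Cholesterol is built from acetyl-CoA through mevalonate and isoprenoid phosphates to squalene, which is closed into a ring and trimmed to cholesterol. The membrane-bound transcription factors SREBP-1 and SREBP-2 (genes Srebf1 and Srebf2) switch on these enzymes when sterols are scarce. SCAP carries them to the Golgi for cleavage, and the INSIG proteins hold SCAP back when sterols are plentiful. The liver X receptors (LXRs) sense oxysterols and induce exporters such as Abca1 and Abcg1 and the ubiquitin ligase Mylip. In fibroblasts and macrophages, the type I interferon response is known to be coupled to sterol synthesis, in part through the oxysterol made by Ch25h.

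Promoter sequences were available for 25 of the 31 genes in the RefSeq table of assembly GRCm38.p6, which holds 250 bases before and 50 bases after each start. The stretches shown belong to some of the genes whose RNA values are given on every array below. Hmgcs1 was added as the promoter in which the searched sterol element was found. Dhcr7, Abca1, Mylip and Npc2 also have such values and a promoter in the table but are not printed. Of these, only Abca1 held no match to the searched motifs. Each is 120 bases long, 5′ to 3′ on the gene's own strand, and capitals mark matches to the searched motifs. The Insig2 stretch is from 1 of its 3 listed promoters, chosen because it held the most matches. Its other listed promoters held no match.
Hmgcs1, chr13:119690158-119690277, plus strand: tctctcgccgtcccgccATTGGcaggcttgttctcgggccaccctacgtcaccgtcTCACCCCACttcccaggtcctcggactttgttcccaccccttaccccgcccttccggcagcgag
Mvd, chr8:122443423-122443542, minus strand: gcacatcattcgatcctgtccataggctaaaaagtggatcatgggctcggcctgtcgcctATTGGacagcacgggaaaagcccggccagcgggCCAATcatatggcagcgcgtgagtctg
Cyp51, chr5:4104698-4104817, minus strand: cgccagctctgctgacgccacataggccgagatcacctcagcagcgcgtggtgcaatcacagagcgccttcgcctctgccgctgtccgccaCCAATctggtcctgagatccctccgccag
Msmo1, chr8:64733579-64733698, minus strand: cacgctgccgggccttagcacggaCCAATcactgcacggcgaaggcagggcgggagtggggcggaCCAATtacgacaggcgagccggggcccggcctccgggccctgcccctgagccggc
Hsd17b7, chr1:169969206-169969325, minus strand: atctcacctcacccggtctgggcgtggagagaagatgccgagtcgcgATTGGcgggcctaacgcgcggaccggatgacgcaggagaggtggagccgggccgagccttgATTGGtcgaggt
Ebp, chrX:8193513-8193632, minus strand: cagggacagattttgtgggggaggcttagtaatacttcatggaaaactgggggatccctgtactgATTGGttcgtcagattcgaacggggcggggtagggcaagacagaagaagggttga
Insig2, chr1:121332590-121332709, minus strand: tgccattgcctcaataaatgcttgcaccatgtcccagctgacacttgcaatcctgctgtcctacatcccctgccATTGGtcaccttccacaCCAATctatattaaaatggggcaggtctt
The stretch of Hmgcs1 runs from 193 to 74 bases before the start and the others end at the base before it. The motifs searched, on both strands, were the sterol regulatory element TCACNCCAC and the NF-Y box CCAAT, which appears in the stretches above in either orientation, and by name the interferon-stimulated response element and the direct repeat 4 read by LXR dimers. In these genes, matches of different motifs did not overlap. NF-Y is a general promoter factor that works beside SREBP on many sterol genes. The NF-Y box was found in 14 of the 15 enzyme genes with a promoter in the table and in 20 of the 25 genes in all, against 41.1% of all genes in the table. Counted by promoter, it was in 14 of 18 enzyme promoters and 21 of 34 promoters of the set, against 37.4% of all 32851 promoters. The sterol element was matched only in Hmgcs1, at 137 bases before the start (1.24% of all promoters). The interferon element was matched only in Ebp, 239 bases before the start and so outside the stretch printed above (3.44% of all promoters). The LXR repeat was matched in none of the 34 promoters (0.0457% of all). These are matches of letters and carry no measurement of binding.

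Levels are given as log2 signal minus the array's 75th percentile, so that 0 is the 75th percentile spot of an array, and differences are log2 differences of group means with the standard error (SE) of a limma model fitted on all genes. A gene counts as called when its Benjamini-Hochberg adjusted p over all 15445 genes was under 0.05. Ppp1r15a served as a check of the labels: on wild-type arrays its level was 2.62 to 3.36 untreated and 5.79 to 5.83 after poly(I:C), and in ΔC cells it was well above background on 0 of 3 untreated arrays and 1 of 3 poly(I:C) arrays. Where its probe lies relative to the ΔC deletion was not determined. Ifnb1, which encodes interferon beta, was above background on 0 of 3 untreated wild-type arrays and at 5.58 to 6.78 after poly(I:C), and at 4.99 to 5.28 in treated ΔC cells. Isg15, an interferon-induced ubiquitin-like protein, rose by 5.64 ± 0.31 in wild-type cells (adjusted p = 6.09e-06) and by 3.71 ± 0.31 in ΔC cells (adjusted p = 0.000163). The arrays passed between 60.4% and 67.3% of probes as well above background, and no spot of the probes used was saturated. The number of arrays limits the precision here, and arrays have no sequencing depth.

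Of the fibroblast markers, 9 of 10 were expressed and Lum was above background on no array. Their summed linear level was 620 to 707 in untreated wild-type cells and 295 to 582 in untreated ΔC cells, and with poly(I:C) it was 560 to 658 and 308 to 580. Of the 9 tested, 3 were called lower in untreated ΔC cells and 0 higher. Among the 3 were Col3a1 (-3.64 ± 0.65, adjusted p = 0.0037) and Vim (-0.63 ± 0.12, adjusted p = 0.00485). Another 2 of the 9 had a higher mean in untreated ΔC cells, by up to 1.37, and were not called. With poly(I:C) 2 were called lower, and 3 had a higher mean, by up to 2.22, and were not called. The epithelial genes Epcam and Cdh1 were above background on no wild-type array and on all ΔC arrays. The other 2 epithelial markers, Krt5 and Krt14, were above background on all 12 arrays. Of the 4, 2 had a lower mean in ΔC cells, at lowest -0.59 untreated and -0.31 with poly(I:C), and were not called. The summed level of the 4 overlapped between the genotypes, at 0.303 to 0.613 and 0.431 to 0.563 untreated. The summed adipocyte markers stood at 5.87 to 7.99 in untreated wild-type and 0.0832 to 0.192 in untreated ΔC cells, through Fabp4 (-7.13 ± 0.48, adjusted p = 8.62e-06). Macrophage and leukocyte markers summed to 19.7 to 23.6 and 9.99 to 13.0. Endothelial markers summed to 15.1 to 22.1 and 12.4 to 15.7, with Cdh5 and Tek above background on no array. Of 4 hepatocyte markers, Alb, Ttr and Apoa1 were above background on no array. The other, Afp, was above background on all 12 arrays. Its mean differed in ΔC cells by -1.11 untreated and -1.17 with poly(I:C), and it was not called. After poly(I:C) in wild-type cells the macrophage and leukocyte sum was lower on every array, at 14.3 to 16.5, and the adipocyte sum was 3.38 to 6.47, while in ΔC cells these sums were 10.5 to 12.9 and 0.089 to 0.161. No tested marker of any list was called in the wild-type response, and their part in it was not tested. The markers moved with genotype beside every genotype result below, and their part in those results was not tested. In bulk samples, fewer cells of a type and less RNA per cell cannot be told apart.

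**Figure D1:**
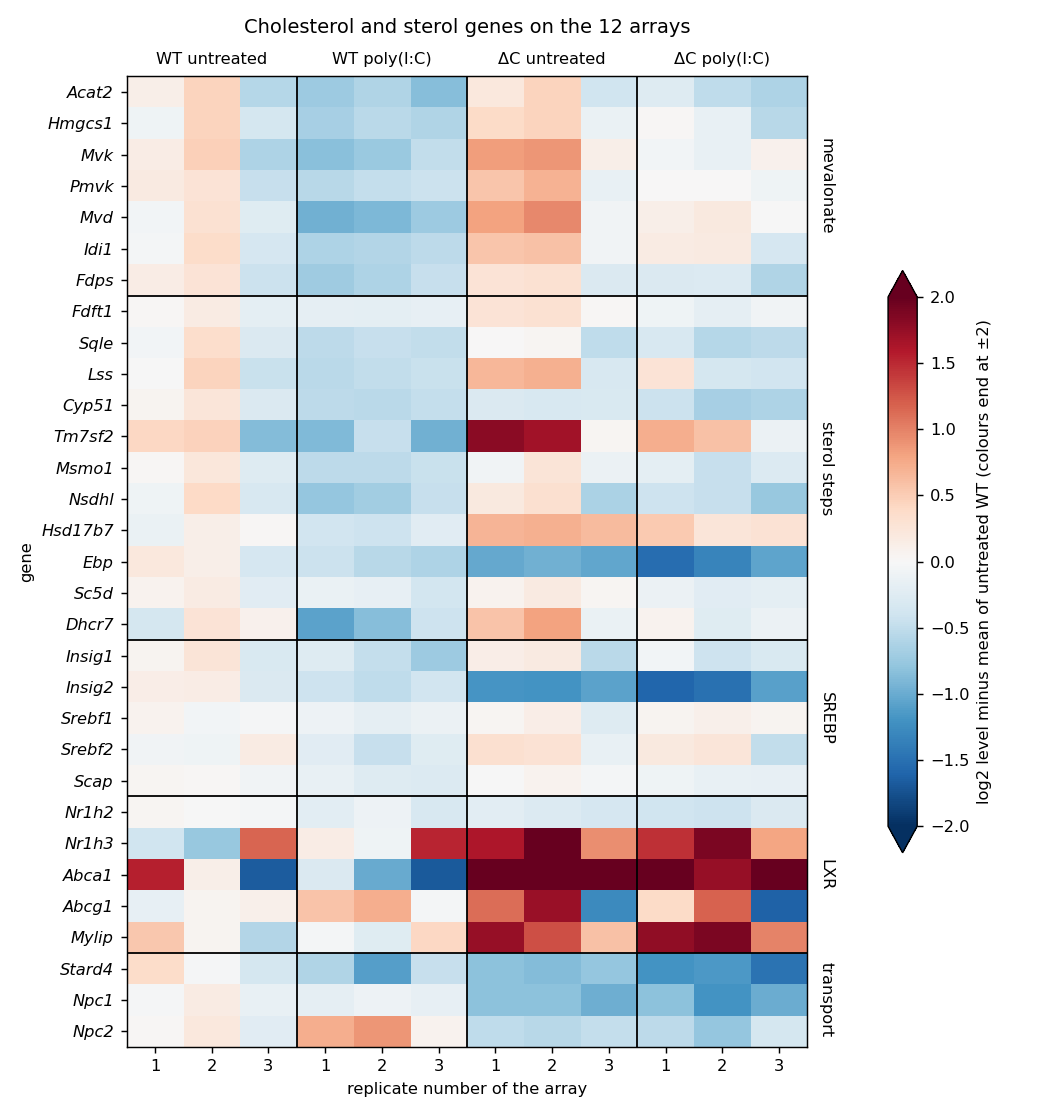
Log2 level of each of the 31 genes (rows, grouped by role) on each of the 12 arrays (columns, by group and replicate number), minus that gene's mean over the 3 untreated wild-type arrays; colours end at ±2. The enzyme rows are blue on all 3 wild-type poly(I:C) arrays, and in both untreated groups most enzyme rows are bluer in replicate 3 than in replicates 1 and 2.

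The first comparison was of wild-type cells with and without poly(I:C). All 18 synthesis enzymes had a lower mean after transfection, with a median log2 difference of -0.56 (range -0.86 to -0.18), while the median over all genes was -0.14 and 64.8% of all genes lay below 0. Only Cyp51, the lanosterol 14-alpha demethylase, passed the test (-0.51 ± 0.14, 1.43-fold lower, adjusted p = 0.0489), against 1.53% of all genes called lower and 5.24% called higher. Without adjustment, 17 of the 31 genes had a p under 0.05, against 26.2% of all genes. The 3 treated arrays lay entirely below the 3 untreated arrays for 13 of 18 enzymes and for 19 of all 31 genes, against 18.6% of all genes. With the replicate number as a block, 2 genes were called, Acat2 (adjusted p = 0.0482) and Mvd (adjusted p = 0.048), and Cyp51 was not (adjusted p = 0.0523), against 2.19% of all genes called lower. The call of Cyp51 did not hold when any single array was left out other than replicate 3 of untreated wild type: its adjusted p was then 0.0525 to 0.18, the highest without replicate 1 of wild-type poly(I:C).

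Values in wild-type cells of the 8 genes with the smallest p follow, in the order of the pathway. Mvd, which makes isopentenyl diphosphate by decarboxylation, stood at 2.93, 3.30 and 2.74 on untreated arrays 1, 2 and 3 and at 2.03, 2.09 and 2.27 on treated arrays 1, 2 and 3. The groups did not overlap, and the difference was -0.86 ± 0.25 (1.82-fold lower, adjusted p = 0.0649, not called). Fdps, which makes farnesyl diphosphate, read 7.22, 7.34 and 6.64 untreated and 6.35, 6.45 and 6.61 treated. Its lowest untreated array, replicate 3, lay just above its highest treated array, and the difference of -0.60 ± 0.22 was not called (adjusted p = 0.118).

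Cyp51 itself was at 2.36, 2.55 and 2.03 untreated and at 1.78, 1.77 and 1.84 treated. The treated arrays were close together, and the untreated array of replicate 3 was nearest to them. Msmo1, the methylsterol monooxygenase that acts after Cyp51, was at 6.35, 6.55 and 6.06 against 5.79, 5.79 and 5.87. The untreated arrays were in the same order as for Cyp51, with a difference of -0.50 ± 0.15 (adjusted p = 0.0779). Hsd17b7, a reductase of the same demethylation complex, was at 0.63, 0.88 and 0.79 against 0.38, 0.35 and 0.53, a difference of -0.34 ± 0.12 (adjusted p = 0.101). Here replicate 1 was the lowest of the untreated arrays, and the groups were again separate.

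Ebp, the sterol isomerase that moves the ring double bond, was at 6.09, 5.99 and 5.53 untreated and at 5.44, 5.31 and 5.25 treated. Its difference was -0.54 ± 0.17 (adjusted p = 0.0786), with no overlap. Dhcr7, the reductase of the last step of the branch through 7-dehydrocholesterol, was at 0.97, 1.60 and 1.41 against 0.26, 0.48 and 0.91. Replicate 1 was lowest in both groups of Dhcr7 and the groups nearly met, with a difference of -0.78 ± 0.26 (adjusted p = 0.0995). Stard4, a cytosolic carrier that moves sterol between membranes and is itself an SREBP target, was at 3.56, 3.18 and 2.85 against 2.59, 2.09 and 2.74. The 2 groups of Stard4 were separate by the gap between replicate 3 untreated and replicate 3 treated, and the difference of -0.73 ± 0.21 was not called (adjusted p = 0.0639). The second probe of Stard4 gave a smaller difference, -0.35 ± 0.19, also not called, and its groups overlapped.

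The other 11 enzymes all had differences below 0 that were not called. Among the mevalonate genes, Acat2 (the cytosolic thiolase that joins 2 acetyl-CoA, not the sterol acyltransferase of the same nickname) differed by -0.72 ± 0.27, Mvk (mevalonate kinase) by -0.69 ± 0.28, Hmgcs1 (which makes HMG-CoA) by -0.60 ± 0.23, Idi1 (the isopentenyl diphosphate isomerase) by -0.58 ± 0.23, and Pmvk (phosphomevalonate kinase) by -0.48 ± 0.24. Among the sterol steps, Tm7sf2, a sterol reductase, had the widest interval of the enzymes, -1.87 to 0.33 around -0.77. Nsdhl, the decarboxylating dehydrogenase, differed by -0.64 ± 0.26, Lss, the lanosterol synthase that closes the ring, by -0.49 ± 0.31, and Sqle, the squalene epoxidase, by -0.49 ± 0.19. Sc5d, the desaturase, differed by -0.22 ± 0.12 and Fdft1, squalene synthase, by -0.18 ± 0.12. Fdft1 has 2 probes, which differed in sign (-0.18 and 0.10, neither called). The other 5 enzymes with 2 probes (Mvk, Pmvk, Tm7sf2, Nsdhl and Hsd17b7) gave differences below 0 on both.

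Of the regulators, none was called in wild-type cells, although all 5 lay below 0 (median -0.31). Insig1 and Insig2 differed by -0.48 ± 0.22 and -0.43 ± 0.16. For the transcription factors themselves, Srebf2 differed by -0.31 ± 0.21 and Srebf1 by -0.13 ± 0.12. Scap differed by -0.23 ± 0.09. The LXR group showed no common direction, and none was called: Nr1h2 (LXR beta) differed by -0.21 ± 0.10 and Nr1h3 (LXR alpha) by 0.53. Abca1, a cholesterol exporter, was above background on 1 of 3 untreated and 0 of 3 treated wild-type arrays, so its values there are mostly bounds. Npc1, the lysosomal membrane protein that exports cholesterol, differed by -0.15 ± 0.13. Its soluble partner Npc2 lay on the other side, at 0.56 ± 0.21, and was not called (adjusted p = 0.124). It was at 4.86, 5.04 and 4.61 untreated and 5.56, 5.72 and 4.91 treated, so the groups overlapped through replicate 3.

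**Figure D2:**
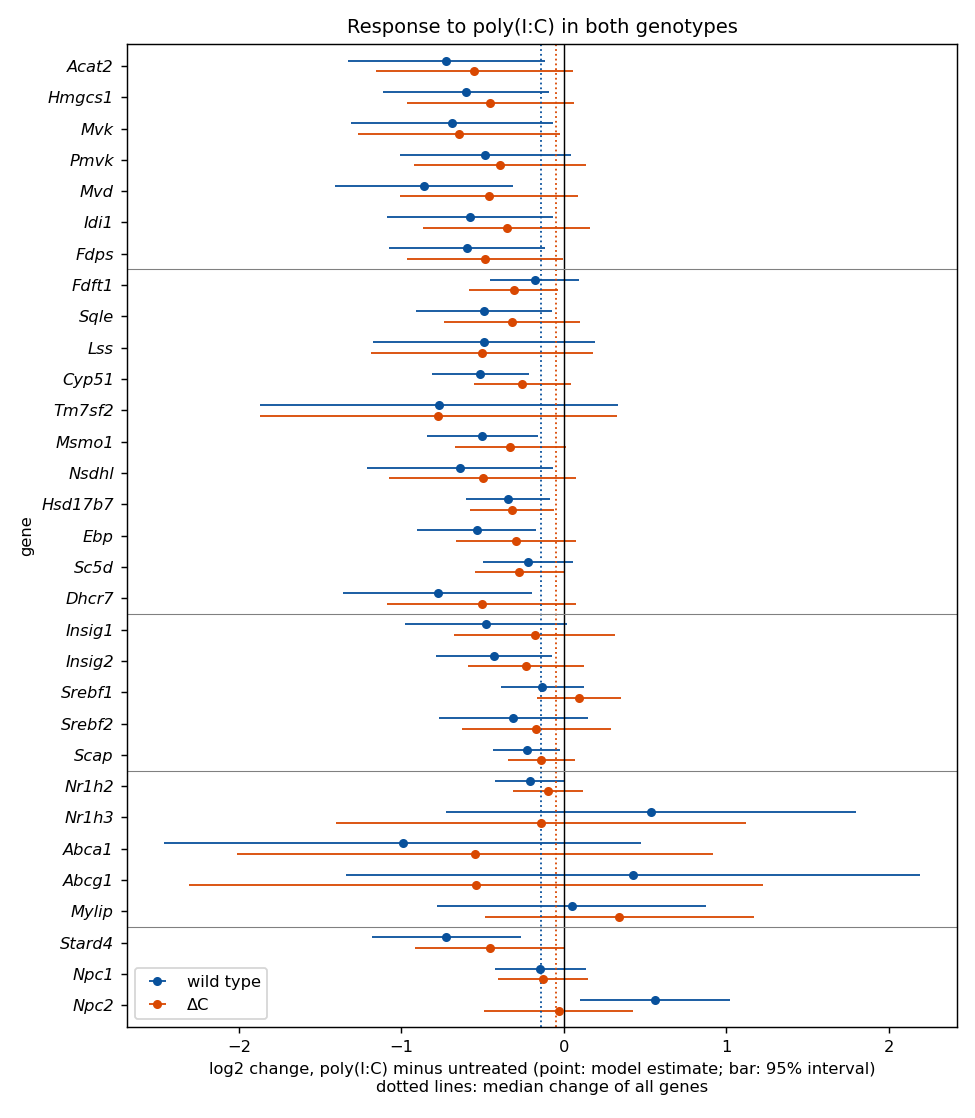
Log2 change with poly(I:C) (x axis) of each of the 31 genes (y axis) in wild-type (blue) and ΔC cells (orange), as the model estimate with its 95% interval; dotted lines mark the median of all genes in each genotype, -0.14 and -0.05. All enzyme points lie left of 0 in both genotypes, and the intervals of the genotypes overlap for every gene.

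In ΔC cells the same comparison gave no call among the 31 genes (limma, adjusted p under 0.05), against 0.0194% of all genes called lower and 1.82% called higher. Without adjustment 4 genes had a p under 0.05, against 10.9% of all genes: Mvk (-0.65 ± 0.28), Fdps (-0.48 ± 0.22), Fdft1 (-0.31 ± 0.12) and Hsd17b7 (-0.32 ± 0.12). All 18 enzymes again had a lower mean, with a median of -0.42 (range -0.77 to -0.26), while the median of all genes was -0.05 and 58.1% of all genes lay below 0. The groups were separate for 7 of 18 enzymes, against 8.91% of all genes. The replicate block gave no call either, against 0.0259% of all genes called lower. Scaling each array to its median in place of its 75th percentile moved the median of all genes from -0.05 to -0.19 in this comparison. All 18 enzymes stayed below 0 in both genotypes under that scaling.

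On the ΔC arrays, Cyp51 was at 2.02, 1.99 and 2.00 untreated and 1.89, 1.65 and 1.70 treated. The groups were separate, with a difference of -0.26 ± 0.14 (adjusted p = 0.532). Mvd was at 3.79, 3.95 and 2.92 against 3.11, 3.19 and 2.98, so the untreated array of replicate 3 fell below all treated arrays and the groups overlapped. Msmo1 was at 6.24, 6.58 and 6.20 against 6.13, 5.86 and 6.05, a difference of -0.33 ± 0.15 with no overlap. Fdps was at 7.34, 7.38 and 6.78 against 6.77, 6.79 and 6.47. Dhcr7 was at 1.90, 2.13 and 1.19 against 1.40, 1.09 and 1.21. In both of these genes the untreated array of replicate 3 lay within the treated range.

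Replicate 3 stood apart in the same way in both genotypes. In untreated wild-type cells array 3 was the lowest of 3 for 16 of 18 enzymes, against 37.8% of all genes, and in untreated ΔC cells for 17 of 18, against 42.1%. The median distance of array 3 from the mean of arrays 1 and 2 over the enzymes was -0.49 and -0.61, against 0.03 and 0.01 for all genes. After poly(I:C) this distance was 0.07 in wild-type and -0.09 in ΔC cells. When arrays of the same number were subtracted, 18, 18 and 15 of 18 enzymes were lower after treatment in wild-type pairs 1, 2 and 3, with medians of -0.62, -0.91 and -0.19. In ΔC pairs 1, 2 and 3 the counts were again 18, 18 and 15 and the medians were -0.43, -0.66 and -0.14. In each genotype 15 of 18 enzymes were lower in all 3 pairs, against 35.6% of all genes in wild-type and 27.1% in ΔC cells. The 4 arrays numbered 3 lay on slides 4 and 5, and replicate 1 of untreated wild type was on slide 4 as well. The cause of the difference was not tested.

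Without all 4 arrays numbered 3, a choice made after the values were seen, 17 of the 31 genes were called lower and 1, Npc2 (0.69), higher in wild-type cells, when 21.1% of all genes were called lower and 13.0% higher. The 17 included all 7 mevalonate genes, with Mvk at -1.09, Mvd at -1.06 and Fdps at -0.88, and 7 of the 11 sterol enzymes, with Tm7sf2 at -1.11 and Cyp51 at -0.67. Also called lower were Insig1 (-0.52), Insig2 (-0.60) and Stard4 (-1.03). In ΔC cells 8 enzymes were called lower, when 6.62% of all genes were, among them Mvk (-0.95), Tm7sf2 (-1.08) and Mvd (-0.72). Leaving out only replicate 3 of untreated wild type gave 10 calls in wild-type cells, all lower, against 1 with all arrays, and the share of all genes called lower rose to 7.37%. Leaving out replicate 3 of wild-type poly(I:C) gave 2 calls, when 13.5% of all genes were called. Of the other 10 arrays, leaving out replicate 3 of untreated ΔC gave 1 call and each of the remaining arrays 0.

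**Figure D3:**
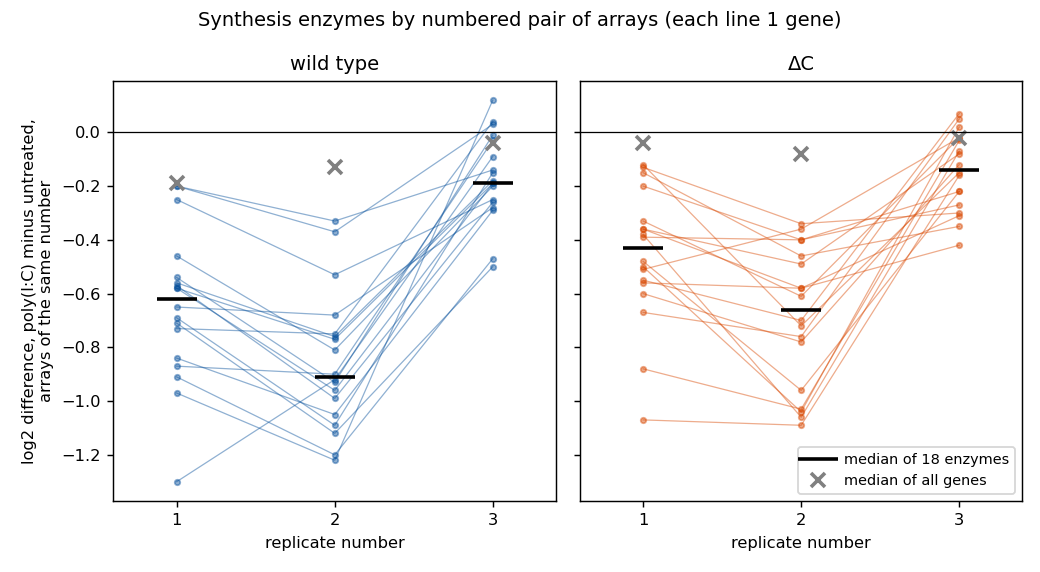
Log2 difference, poly(I:C) minus untreated, between arrays of the same replicate number (x axis) for each of the 18 synthesis enzymes (points, joined by gene) in wild-type and ΔC cells; bars are the enzymes' median and crosses the median of all genes. Pairs 1 and 2 lie below 0 throughout, while in pair 3 the medians are -0.19 and -0.14 and 3 of 18 enzymes lie above 0 in each genotype.

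Whether the response differed between the genotypes was tested directly, as the difference of the log2 changes (ΔC minus wild type). No gene of the set was called (limma), and none had an unadjusted p under 0.05, against 0.0194% of all genes called and 5.41% with an unadjusted p under 0.05. The lowest unadjusted p was 0.0692, for Npc2 (-0.59, 95% interval -1.24 to 0.06). Over the enzymes the differences ran from -0.13 to 0.40, with a median of 0.15, and the median of all genes was 0.07. Scaling to the array median moved the median of all genes to -0.14, and the median of the 31 genes from 0.14 to -0.07. The 95% intervals of the enzymes reached from -1.56 to 1.55 and their median half-width was 0.72, which is wider than the enzymes' median change in either genotype. Differences in response as large as the response itself thus lie within these intervals. The replicate block gave no call among the 31 genes either.

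Between the genotypes, the share of the 31 genes called was near that of all genes, and the calls were spread over the roles: at most 3 of 18 enzymes, 1 of 5 regulators, 2 of 5 LXR genes and 2 of 3 transport genes in a condition. In untreated cells 7 of the 31 genes were called, against 21.2% of all genes (10.9% higher and 10.2% lower): Hsd17b7, Abca1 and Mylip were higher in ΔC cells, and Ebp, Insig2, Stard4 and Npc1 were lower. With poly(I:C) 8 were called, against 20.9% of all genes (11.9% higher and 9.04% lower): Mvd, Hsd17b7, Abca1 and Mylip were higher, and Ebp, Insig2, Npc1 and Npc2 were lower. Abca1 entered the test only through the ΔC arrays, where it was bright; among the 30 genes above background on all 12 arrays, 6 and 7 were called, against 20.2% and 19.7% of all such genes. With the replicate block Tm7sf2 joined the genes called higher in untreated cells (1.18, adjusted p = 0.0166; 13.4% of all genes called higher), which made 8, and Tm7sf2 (1.17, adjusted p = 0.0172) and Idi1 (0.58, adjusted p = 0.0358) joined them after poly(I:C), which made 10 (14.2% of all genes called higher). The called genes kept their direction within 1 slide (2 arrays) and within 1 scan day (3 arrays). These were 7 of 7 untreated and 8 of 8 with poly(I:C). For every called gene the genotype groups did not overlap, so this direction was fixed in advance and adds no support. With slide as a block, Npc1 was the only call in untreated cells (-0.97, adjusted p = 0.017), and Npc1 (-0.67, adjusted p = 0.0476) and Hsd17b7 (0.87, adjusted p = 0.0302) were the only ones with poly(I:C), when 5.98% and 6.08% of all genes were called. Scaling each array to its median ended the calls of Mylip (adjusted p = 0.078) and Stard4 (adjusted p = 0.0928) untreated and of Hsd17b7 (adjusted p = 0.0892), Mvd (adjusted p = 0.142) and Mylip (adjusted p = 0.0546) with poly(I:C), when 12.7% and 14.1% of all genes were called. The untreated count was 4 without replicate 1 or 2 of untreated ΔC (11.6% and 11.7% of all genes) and 11 without its replicate 3 (24.7% of all genes).

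Among the enzymes, Hsd17b7 and Ebp differed in opposite directions in both conditions. Hsd17b7 was at 1.44, 1.47 and 1.40 on untreated ΔC arrays and at 1.29, 1.00 and 1.05 after poly(I:C), every one of them above all 6 wild-type arrays. It was higher by 0.67 ± 0.12 untreated (adjusted p = 0.00304) and 0.70 ± 0.12 with poly(I:C) (adjusted p = 0.00251), and its second probe gave 0.51 and 0.57. In a limma fit over probes, that probe was called with poly(I:C) (adjusted p = 0.0438) but not untreated (adjusted p = 0.0646). On that probe, treated ΔC array 2 (0.63) lay below all untreated wild-type arrays (0.75 to 0.98). Ebp was at 4.85, 4.90 and 4.84 untreated and at 4.34, 4.54 and 4.82 treated in ΔC cells, every one of them below all 6 wild-type arrays. Its differences were -1.01 ± 0.17 (2.01-fold lower, adjusted p = 0.00235) and -0.77 ± 0.17 (adjusted p = 0.00959). Mvd was higher in ΔC cells with poly(I:C) by 0.96 ± 0.25 (1.95-fold, adjusted p = 0.0203) and differed by 0.56 ± 0.25 untreated (adjusted p = 0.133). The call of Mvd did not hold without replicate 1 or 2 of either poly(I:C) group (adjusted p between 0.0606 and 0.0751). All 7 mevalonate genes had a higher mean in ΔC cells in both conditions, with medians of 0.35 untreated and 0.46 with poly(I:C), when 55.0% and 49.5% of all genes had a lower mean, and apart from Mvd with poly(I:C) none was called. With slide as a block the untreated median was 0.10, and Acat2 (-0.07), Hmgcs1 (-0.08) and Fdps (-0.07) lay below 0. With poly(I:C) all 7 stayed above 0 under that block (median 0.57). As printed above, the promoters of Hsd17b7, Ebp and Mvd each hold an NF-Y box, as do those of 14 of 15 enzyme genes, whichever way they differed.

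Insig2, the INSIG form that is not itself induced by SREBP, had the most separate values of the regulators. It was at 3.31, 3.33 and 2.89 in untreated wild-type cells and at 2.00, 1.98 and 2.11 in untreated ΔC cells. With poly(I:C) it was at 2.77, 2.68 and 2.79 and at 1.60, 1.69 and 2.10. All 6 ΔC arrays lay below all 6 wild-type arrays. The differences were -1.15 ± 0.16 (2.22-fold lower, adjusted p = 0.000925) and -0.95 ± 0.16 (adjusted p = 0.00263), and its second probe gave -1.31 and -1.16. The other 4 regulators, Insig1, Srebf1, Srebf2 and Scap, differed by between -0.08 and 0.30 and none was called.

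Of the LXR targets, Abca1 was at -4.52, -5.95 and -7.74 in untreated wild-type cells, where it was above background on 1 of 3 arrays, and at -3.10, -3.74 and -3.63 in untreated ΔC cells. With poly(I:C) it was at -6.37, -7.08 and -7.75 in wild-type cells, above background on none, and at -4.01, -4.32 and -3.77 in ΔC cells. All 6 ΔC arrays lay above all 6 wild-type arrays, and Abca1 was tested only because it was above background on the ΔC arrays. It was at least 3.95-fold higher in untreated ΔC cells (adjusted p = 0.0206) and at least 4.37-fold higher with poly(I:C) (adjusted p = 0.00993), bounds that set a wild-type array below the lowest signal well above background at that signal. Since the filter let Abca1 in through its bright group, these p-values add no support beyond the levels. The untreated call of Abca1 did not hold without replicate 1 (adjusted p = 0.0772) or replicate 2 (adjusted p = 0.0522) of untreated ΔC.

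Mylip, which marks lipoprotein receptors for degradation, was at 0.42, -0.07 and -0.71 in untreated wild-type and 1.63, 1.16 and 0.46 in untreated ΔC cells. With poly(I:C) it was at -0.16, -0.36 and 0.29 and at 1.64, 1.75 and 0.87. In both genotypes replicate 3 was lowest untreated, and the genotypes were separate in each condition. Mylip was higher by 1.20 ± 0.37 untreated (adjusted p = 0.0443) and 1.50 ± 0.37 with poly(I:C) (adjusted p = 0.0182). Leaving out any of 8 single arrays ended the untreated call (adjusted p 0.0533 to 0.164), and leaving out replicate 1 or 2 of either poly(I:C) group ended the other (adjusted p 0.0643 to 0.0744). Its second probe gave 0.80 and 1.24, not called. The receptors and Abcg1, a second exporter, were not called: Nr1h3 differed by 1.52 ± 0.57 and 0.85 ± 0.57, Nr1h2 by -0.27 ± 0.10 and -0.16 ± 0.10, and Abcg1 by 0.52 ± 0.80 and -0.44 ± 0.80. Abcg1 was at -1.63, -1.02 and -4.01 on untreated ΔC arrays and at -2.36, -1.56 and -4.37 after poly(I:C). Replicate 3 of ΔC was thus lowest in both conditions and set most of the spread.

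All 3 transport genes had lower means in ΔC cells in both conditions. Npc1 was at -0.42, -0.25 and -0.55 in untreated wild-type and -1.22, -1.23 and -1.38 in untreated ΔC cells. After poly(I:C) the values were -0.58, -0.51 and -0.57 against -1.22, -1.59 and -1.40, so poly(I:C) arrays lay close to the untreated ones within each genotype. The genotypes differed by -0.87 ± 0.13 (1.83-fold lower, adjusted p = 0.00111) and -0.85 ± 0.13 (adjusted p = 0.0013). Npc2 was at 4.32, 4.28 and 4.36 in untreated and 4.31, 4.07 and 4.48 in treated ΔC cells, below all wild-type arrays given above. It was lower by 1.11 ± 0.21 on the log2 scale with poly(I:C) (2.16-fold, adjusted p = 0.00455) and differed by -0.52 ± 0.21 untreated (adjusted p = 0.103). Stard4 was at 2.39, 2.33 and 2.42 untreated and 2.00, 2.05 and 1.72 treated in ΔC cells. It was lower untreated (-0.82 ± 0.21, adjusted p = 0.0195) and differed by -0.55 ± 0.21 with poly(I:C) (adjusted p = 0.0866), and its second probe gave -0.77 and -0.58. The untreated call of Stard4 did not hold without replicate 1 of untreated wild type or replicate 1 or 2 of untreated ΔC (adjusted p 0.0609 to 0.0694).

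**Figure D4:**
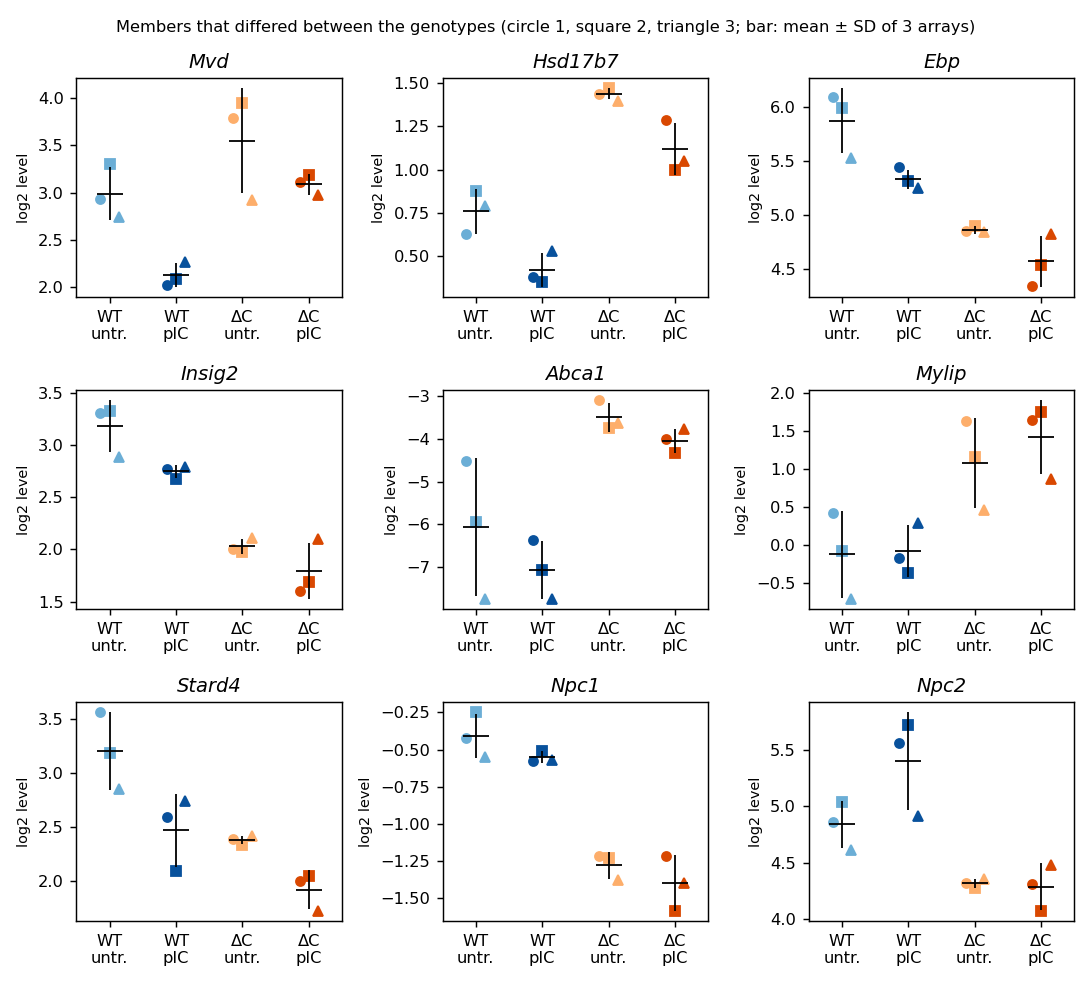
Log2 level (y axis, log2 signal minus the array's 75th percentile, own scale in each panel) of 9 genes called in a genotype comparison, on the 3 arrays of each of the 4 groups; circle, square and triangle are replicates 1, 2 and 3, and bars are mean ± SD. Insig2, Ebp, Npc1 and Npc2 are lower and Hsd17b7 and Abca1 higher on all 6 ΔC arrays than on any wild-type array.

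The neighbouring lipid genes were taken from lists by function, and their counts read against the shares of all genes given above: 5.24% called higher and 1.53% lower in the wild-type response, and 21.2% and 20.9% called between the genotypes. Of 17 genes of fatty acid synthesis, whose SREBP-1 control overlaps with that of the sterol enzymes, 2 fell and none rose in wild-type cells: Scd2, a stearoyl-CoA desaturase (-1.14 ± 0.30, adjusted p = 0.0474), and Elovl5, a fatty acid elongase (-0.48 ± 0.11, adjusted p = 0.0298). Their median was -0.54, against -0.14 for all genes, and 16 of 17 were below 0. In ΔC cells 0 of 17 were called and 16 of 17 were below 0, with a median of -0.33. Between the genotypes, Acacb, the mitochondrial acetyl-CoA carboxylase, was higher in ΔC cells by 3.68 ± 0.37 untreated (adjusted p = 0.000128) and 3.07 ± 0.37 with poly(I:C) (adjusted p = 0.000439). Tmem97, an SREBP target that binds Npc1, was lower by 0.69 ± 0.11 and 0.42 ± 0.11 on the log2 scale (adjusted p = 0.00172 and 0.0189). Pnpla3, a lipase, was higher by 1.16 ± 0.33 with poly(I:C). It was dim, at -5.91, -5.02 and -4.66 on treated wild-type arrays, and above background on 2 of those 3.

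Of 9 genes of SREBP processing and sterol-regulated degradation, Rnf145, a sterol-responsive ubiquitin ligase, fell in wild-type cells (-0.67 ± 0.14, adjusted p = 0.0173) and no other was called there. Between the genotypes Rnf145 (-0.44 ± 0.14) and Erlin1 (0.45 ± 0.14) were called untreated, and Rnf139 (-0.84 ± 0.19) with poly(I:C).

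The largest change of these lists was in Ch25h, the cholesterol 25-hydroxylase, an interferon-induced enzyme whose product suppresses SREBP cleavage and activates LXR. Ch25h was at -4.29, -5.08 and -5.85 on untreated wild-type arrays, 2 of which were above background, and at 2.59, 1.95 and 0.52 after poly(I:C). In ΔC cells it was at -4.60, -5.15 and -5.10 untreated and -2.31, -2.92 and -2.02 treated. It rose in both genotypes, by 6.76 ± 0.52 (adjusted p = 4.85e-05) and 2.53 ± 0.52 (adjusted p = 0.038), and treated ΔC arrays lay below all treated wild-type arrays (-4.10 ± 0.52, adjusted p = 0.00058). The difference between the responses was -4.23, which was not called without the block (adjusted p = 0.213) and was called with the replicate block (adjusted p = 0.0411). Of the other 8 genes of oxysterol and ester formation, Soat2, a sterol acyltransferase (1.82 ± 0.47, adjusted p = 0.0464), and Lcat, the plasma acyltransferase (0.72 ± 0.17, adjusted p = 0.0314), rose in wild-type cells. The call of Soat2 did not hold with the replicate block (adjusted p = 0.0606).

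Between the genotypes, 6 of those 9 genes were called untreated and 5 with poly(I:C), against 21.2% and 20.9% of all genes; Cyp7b1 in both conditions and Cyp27a1 untreated passed the filter only through the genotype in which they were bright. Soat1, the acyltransferase of most tissues, was higher in ΔC cells (1.91 ± 0.29 and 2.69 ± 0.29), and Soat2 was lower (-1.65 ± 0.47 and -3.69 ± 0.47). The dehydrogenase Hsd3b7 was lower too (-1.39 ± 0.18 and -1.23 ± 0.18). The oxysterol hydroxylase Cyp7b1 was above background on all wild-type arrays and on 1 of 3 ΔC arrays in each condition, and was at least 14.4-fold lower in untreated ΔC cells and at least 12.6-fold lower with poly(I:C). The sterol hydroxylase Cyp27a1, above background on 0 of 3 untreated wild-type arrays, was at least 1.70-fold higher in untreated ΔC cells. The 14 genes of sterol transport and uptake had 1 call in each direction in wild-type cells, the lipoprotein receptor Scarb1 (-0.53 ± 0.14, adjusted p = 0.0469) and the sterol carrier Stard5 (0.96 ± 0.25, adjusted p = 0.0474), and both had an adjusted p of 0.0555 with the replicate block. Between the genotypes, 2 genes of that list were higher and 1 lower in untreated ΔC cells, and 5 higher and 2 lower with poly(I:C). Gramd1b, a sterol transfer protein of membrane contacts, was higher in ΔC cells by 2.77 ± 0.32 untreated and 2.09 ± 0.32 with poly(I:C), and Abcg4, an exporter, by 2.22 ± 0.30 and 1.69 ± 0.30. The lower genes were Abca7, a lipid transporter, untreated (-0.70 ± 0.20), and with poly(I:C) Stard5 (-1.07 ± 0.25) and Vldlr, a lipoprotein receptor (-2.96 ± 0.86, adjusted p = 0.0349). Vldlr differed by -2.62 ± 0.86 in untreated cells (adjusted p = 0.0561), which was called with the replicate block (adjusted p = 0.00765). Another list grouped 6 genes with the LXRs (Rxra, Rxrb, Ncoa1, Ncor1, Lpcat3 and Nr1h4), not all of them LXR partners. None of the 6 was called in either response. The nuclear receptors Rxra (-0.91 ± 0.28 and -1.08 ± 0.28) and Nr1h4 (-1.66 ± 0.37 and -2.29 ± 0.37) were lower in ΔC cells in both conditions. With the replicate block, 8.29% of all genes were called in the wild-type response and 27.3% and 25.8% between the genotypes. The wild-type response then had 3 genes lower in fatty acid synthesis and 1 higher and 1 lower in SREBP processing. It also had 1 lower among the 6 genes grouped with the LXRs. In untreated cells between genotypes the block gave 2 higher and 4 lower in transport and uptake, and 0 higher and 1 lower in SREBP processing. With poly(I:C) it gave 5 higher and 3 lower in transport and uptake, and 1 higher and 2 lower among the 6 genes grouped with the LXRs.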

How the data were processed

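Agilent 1-colour (Cy3) arrays of 12 MEF samples, 3 per group, were read with Feature Extraction 10.7.3.1, per the file headers. The deposited scanner values are spot intensities, background-subtracted and detrended by that software; the labels add that RNA came from the supernatant of an NP40 lysate. The submitters' processing notes name limma. The authors' deposited table holds log2 values whose columns share a median of 5.28; its normalization is not given in the sources used here, and it served as an alternative only, because its column for ΔC poly(I:C) replicate 1 did not follow its own array (r = -0.242, others 0.939 to 0.984).

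Spots of a probe were averaged without control and outlier spots. The log2 intensity minus the array's 75th percentile was fitted with limma 3.58.1 (R 4.3.3) to all 12 arrays together, with a mean for each group, two-sided, with Benjamini-Hochberg adjustment. A gene entered the test when the flag for signal over background was set on every array of any 1 group, and its brightest probe stood for it. Of 55681 probes, 27235 were assigned to a gene through RefSeq accessions. Same-numbered arrays deviated together in each of the 4 pairs of groups compared (correlations 0.115 to 0.651) and the design names 3 independent experiments. The replicate number was therefore taken to pair the arrays, but only in the fits with the replicate block. The main fit, which gave the main values and calls, had no block. Of the other 2 pairs of groups, untreated wild type with ΔC poly(I:C) gave -0.00806 to 0.0657 and wild-type poly(I:C) with untreated ΔC 0.139 to 0.192. The labels do not say that cultures came from separate animals, so p-values measure the spread between these samples.

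Values on every array were printed for the genes called in any of the 5 contrasts and, for the wild-type response, for the 8 smallest p; from each related list at most the 3 largest calls in each direction; 1 related list is not reported here. The members and lists were chosen with earlier results of these data known. The files hold no mean spot signal, so the normexp alternative used the deposited median spot and background intensities with an offset of 50. Of 26 alternatives planned, 12 leave out 1 array each, and 1 was added after the data were seen. The model was also run on simulated data. That run drew independent noise for each array, unlike the same-numbered arrays here, which deviated together, so it is not used as support.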

Additional observations from a re-analysis of the deposited data

How the results depend on the processing

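Counts of called genes are out of 31 and are given in the order wild-type response, ΔC response, genotype untreated, genotype with poly(I:C) and difference of responses, where the main values are 1, 0, 7, 8 and 0. Shares of all genes called follow in parentheses; the main shares are 6.77%, 1.84%, 21.2%, 20.9% and 0.0194%. The wild-type count was 2 with the replicate block (8.29%), 3 with normexp (7.12%), 5 with trended and robust variances (9.86%), and 0 with median scaling (3.87%), quantile normalization (6.31%), no filter on dim probes (3.57%), the authors' table (2.28%, or 5.07% without its mismatched column), slide as a block (1.50%), or only the groups compared (2.92%). The genotype counts were 2 and 2 in the authors' table (6.66% and 3.60%) and 6 and 6 without its mismatched column (19.2% and 14.4%), 1 and 2 with a term for slide (5.98% and 6.08%), and 4 and 5 with a term for scan day (10.5% and 11.3%). Both were 5 with median scaling (12.7% and 14.1%). Array weights gave 24, 16, 20, 17 and 1, when they called 43.7%, 17.3%, 48.0%, 44.9% and 4.49% of all genes. Without all 4 arrays numbered 3, chosen after seeing the data, the first 4 counts were 18, 8, 16 and 16 (34.1%, 13.1%, 36.4% and 37.7%). Leaving out 1 array at a time gave 0 to 10, 0 to 0, 4 to 11, 6 to 10 and 0 to 0; the 4 came without replicate 1 or 2 of untreated ΔC (11.6% and 11.7%), the 11 without its replicate 3 (24.7%), and the 10 in wild-type cells without replicate 3 of untreated wild type (14.5%). The causes were not tested.

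Over all single genes and alternatives, 3926 values kept direction and side of the threshold or were not called either way, 81 lost a call, 142 gained one and no call changed sign. Over all genes, median scaling called 3.77% higher and 0.0906% lower in the wild-type response, against 5.24% and 1.53%. Between genotypes it called 8.18% and 4.51% untreated, against 10.9% and 10.2%, and 6.47% and 7.63% with poly(I:C), against 11.9% and 9.04%. It moved the median of all genes with poly(I:C) between genotypes from 0.01 to -0.14. The replicate block changed no other call of the 31 genes than those given with the results. Of the 31 genes only Abca1 was not above background on all arrays, which limits its wild-type levels.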
